A study of Mus musculus with 2 samples.

Results

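The chromosome 6 block is a stretch of DNA between the histamine receptor gene Hrh1 and the autophagy gene Atg7, from 114480001 to 114645000 in the mm10 build. It was chosen by its ratio of knockout to wildtype reads, because long runs of it were captured more in a library labelled Kaiso knockout than in a wildtype library. Its members are all windows of 100 bp in the deposited table that start inside it, 1130 of 2537435. The study captured methylated DNA of mouse testis with the methyl-CpG binding domain of the MBD2 protein and sequenced it, to ask what changes in males that lack Kaiso. There were 2 libraries, 1 per genotype, both of the C57BL/6 strain. The wildtype library, of wildtype phenotype, held 87710791 reads. The other library was labelled Kaiso KO, generation 3 offspring and male sterile, and held 98549116 reads. The description of that knockout sample also calls its testis wildtype, so the knockout values rest on the genotype label. The sources used here do not give the allele, the age or the number of mice behind each library. No untreated or input DNA library was used here, so more copies of a sequence and more methylation per copy cannot be told apart.

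Kaiso, the protein of the Zbtb33 gene, is a zinc finger protein that binds methylated CpGs and takes part in gene repression. Tandem arrays, in which 1 unit is repeated head to tail, often carry DNA methylation and can differ in copy number between animals. Capture by a methyl-CpG binding domain grows with the number of methylated CpGs on a fragment, so that windows with many CpGs normally collect more reads. Reads from near-identical units can align to several of them, and the sources used here do not say what was done with such reads.

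With 1 library per genotype the comparison has no replicate check and no test between conditions. The table lists only windows that passed an unadjusted p of 0.05 between both libraries, so a window that is absent was not shown to be equal. Because the block was chosen for its ratio, the ratios below describe it and were not tested. Ratios are knockout over wildtype, scaled by library reads. Their 95% intervals are exact Clopper-Pearson intervals and cover counting error only, after a sum over windows is divided by 4 to approximate fragments. As a check of the label, Zbtb33 (chromosome X, 38189793 to 38197046) was listed in 16 windows that summed to 303 counts in wildtype and 83 in the knockout library, a log2 ratio of -2.04 (-2.80 to -1.31). Falls were common, as 38% of all listed windows dropped by 2-fold or more. How often other genes fell as far as Zbtb33 was not tested, so its fall is not by itself evidence for the label. Captured DNA also holds no RNA. The label is thus checked weakly, and the tissue could not be checked by its markers.

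The label gene-free holds for the core of the block but not for its edges. Hrh1, a G-protein coupled receptor gene, runs from 114397936 to 114483298 in the GRCm38.p6 annotation and covers 3298 bp of the left edge. Atg7, the gene of the activating enzyme for autophagosome conjugation, starts at 114643127 and covers 1874 bp of the right edge. Of the 1130 windows, 4 lay in Hrh1 and 1 in Atg7. Between them, a dense core of 1123 windows reached from 114489701 to 114637600, a length of 147.9 kb with 0 annotated genes. It is bounded by the first and the last window outside genes that were at least 2-fold higher, a choice made after seeing the data. This core is called the array below, for the repeated structure described next.

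Values along the array recurred at a spacing of about 2.44 kb. The number of CpGs in a window comes from the genome sequence, but it is deposited for listed windows only, which were selected on their reads. Along the block, CpG counts of windows 2.4 kb apart had a Pearson r of 0.38 over 1006 pairs, and windows 4.9 kb and 7.3 kb apart had 0.32 and 0.24. Between these spacings r changed sign more than once. It was 0.20 at 0.8 kb, -0.17 at 1.2 kb, 0.15 at 1.6 kb, 0.18 at 3.4 kb, -0.19 at 3.6 kb and 0.17 at 4.0 kb. The strongest Fourier period of the CpG count was 0.82 kb. Several maxima within 1 unit can give such a shorter period, so it does not show a separate repeat. Pairs share windows, so these values are a description. The pattern of listed and unlisted windows, which rests on reads, had an r of 0.63 over 1455 pairs at 2.4 kb, and 0.52 over 1357 pairs at 12.2 kb. Its strongest period over the whole array was 2.44 kb, and it was 2.41 kb left and 2.46 kb right of the array's midpoint.

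**Figure D1:**
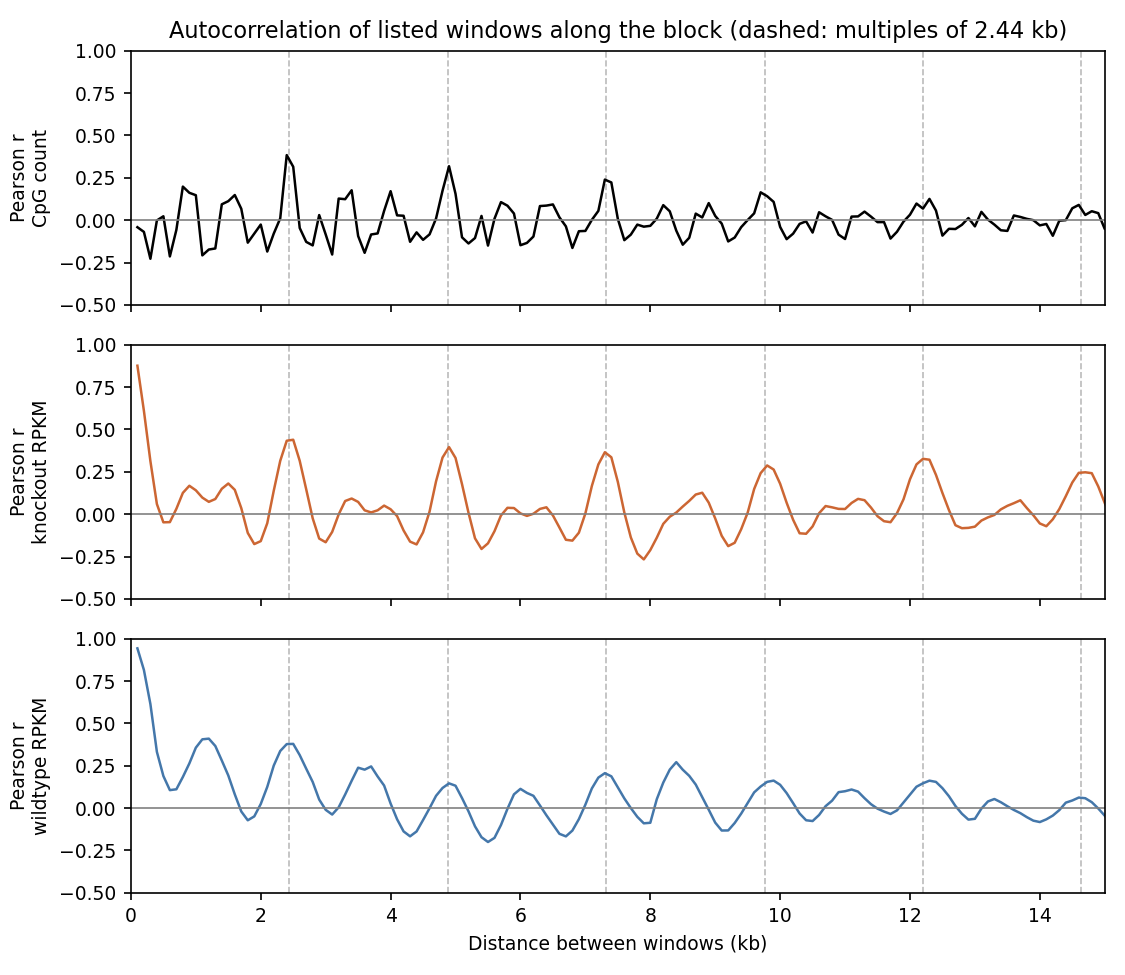
Pearson r between windows (vertical axis) against their distance in kb (horizontal axis), for CpG count, knockout RPKM and wildtype RPKM. Dashed lines mark multiples of 2.44 kb; CpG count and knockout RPKM peak at or beside the first lines, while wildtype RPKM also has a peak at 1.2 kb.

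Reads of both libraries recurred at about this spacing, but at its later multiples wildtype did so less clearly than the knockout library. Knockout RPKM, the reads scaled to window length and library size, had an r of 0.44 at 2.5 kb over 1005 pairs and 0.40 at 4.9 kb. Wildtype RPKM had 0.38 at 2.5 kb, but its highest value beyond the width of a fragment, 0.41, stood at 1.2 kb over 772 pairs. Knockout RPKM had 0.073 at 1.2 kb. Farther apart, wildtype RPKM had 0.15 at 4.9 kb and 0.21 at 7.3 kb, under its 0.25 at 3.7 kb and 0.27 at 8.4 kb. On a log2 scale the wildtype peak stood at 2.5 kb with an r of 0.47. Windows 2.5 kb apart thus resembled each other in both libraries, and the extra wildtype peak at 1.2 kb was seen on the linear scale. By Fourier analysis the strongest period of reads over the array was 1.23 kb in knockout and 1.22 kb in wildtype RPKM. Both are shorter than the 2.44 kb of the listing, and 2 maxima within a unit, described below, can give such a period.

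Unlisted gaps divided the array into units. Following these gaps gave 60 gap centres and 59 whole units, with a part unit at each end. The whole units measured 2.44 ± 0.10 kb (SD over 59 units), between 2.2 and 2.8 kb in steps of the window length. Each next gap was searched only near the last gap plus the period, and 2.8 kb was the longest unit this search allowed. The mean length and its spread are therefore partly set by the search and do not measure how regular the units are. Each held 15 to 22 listed windows, with a median of 18, and 54 to 73 CpGs in them, with a median of 66. Within a unit the listed windows averaged 3.57 ± 0.20 CpGs. The sum of CpGs had a coefficient of variation of 6.35% over units, which is likewise partly set by how the units were cut. Of the 1479 window positions of the array 75.9% were listed.

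Wildtype reads were few across the block, and by 1 of the measures below the knockout library was low too. Across the block the median was 9 wildtype and 55 knockout counts per listed window, while over all listed windows of the table the medians were 39 and 40. As RPKM the block had medians of 1.03 in wildtype and 5.58 in the knockout library, against 4.45 and 4.06 over the table. Wildtype counts in the array ran from 0 to 54 and knockout counts from 9 to 146. The relative methylation score, the authors' estimate of signal relative to local CpG number on a scale not stated, had medians of 0.0229 in wildtype and 0.0933 in the knockout library. Over the table these medians were 0.186 and 0.153, so the block lay under the table in both libraries by that score, and farther in wildtype.

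Summed over the block, 11903 wildtype and 64127 knockout counts gave a log2 ratio of 2.26, or 4.79-fold (4.61 to 4.99). All 1130 windows were higher in the knockout library, against 56.5% of all listed windows. At least 2-fold higher were 1084, against 17.6% of all windows, and at least 4-fold higher were 797, against 9.44%. A further step, 8-fold, was passed by 349 windows of the block and by 4.12% of all windows. At least 2-fold lower were 0, against 38% of all windows. The median window ratio was 2.49 on the log2 scale in the block and 0.40 over the table. The rule used this same contrast, so nothing is read from these shares. Scaling to the windows with 5 or more CpGs lowered the log2 ratio of the block to 1.60, and 1114 windows were then higher.

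**Figure D2:**
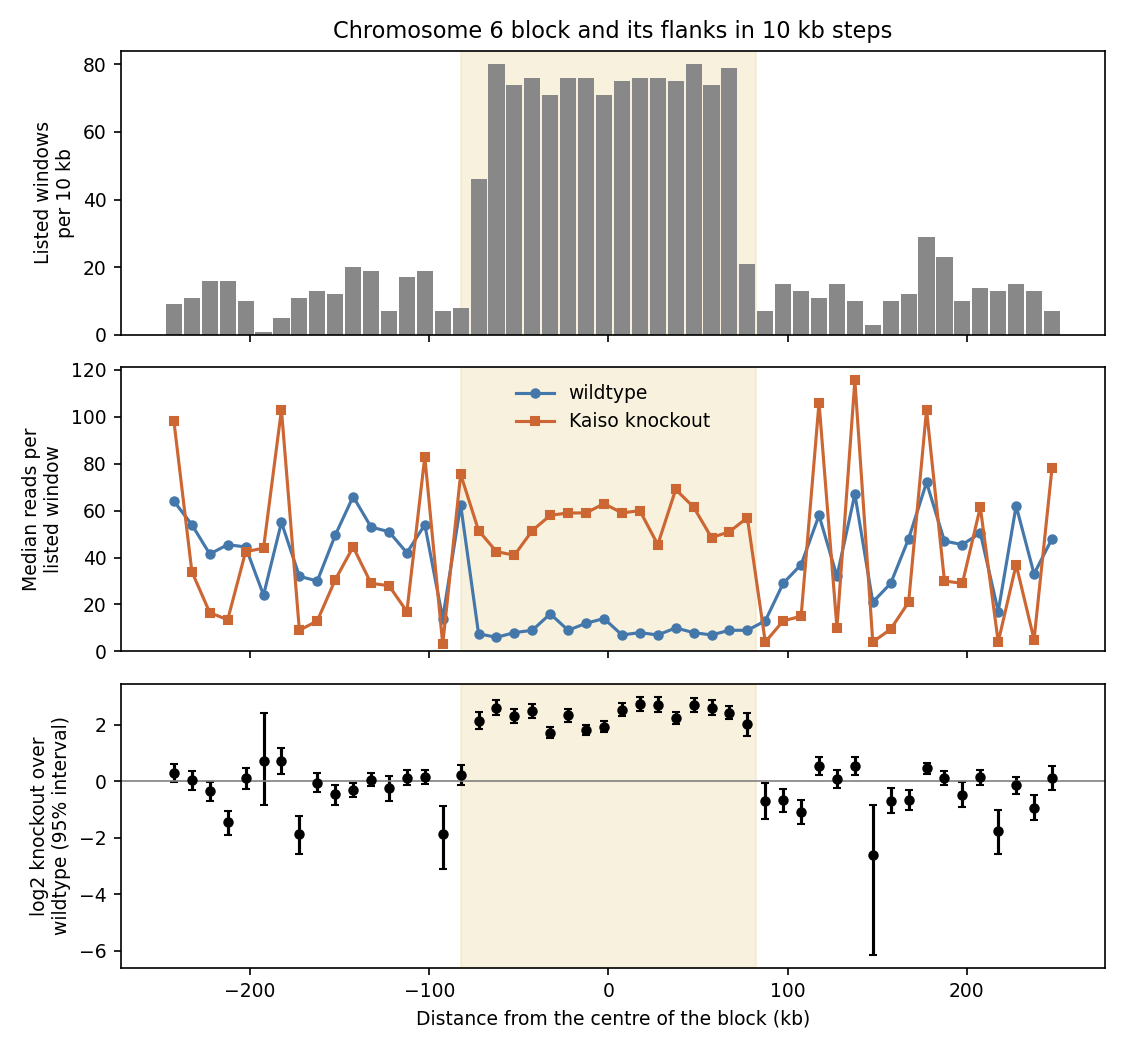
Listed windows per 10 kb, median reads per listed window and log2 ratio with its 95% interval (vertical axes) against distance from the block's centre in kb (horizontal axis), with the block shaded. The 16 steps on the array have wildtype medians of 6 to 16 and knockout medians of 41 to 69 reads, and the steps outside it have log2 ratios between -2.60 and 0.73.

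The array's ends were set by the ratio, so its contrast with the flanks is given as a description. In steps of 10 kb the 16 steps on the array held 21 to 80 listed windows and had log2 ratios between 1.72 and 2.72. The other 34 steps, on either side, held 1 to 29 listed windows and had ratios between -2.60 and 0.73. Every one of the 16 array steps had the higher median in the knockout library, compared with 10 of the 34 others. A flank of equal length on the left had 197 listed windows with medians of 45 wildtype and 24 knockout counts. On the right there were 217, with medians of 43 and 30. Their log2 ratios were -0.14 (-0.22 to -0.056) on the left and -0.021 (-0.0996 to 0.058) on the right.

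The 7 windows of the block outside the array were all higher in the knockout library as well, by log2 ratios of 0.35 to 1.55. The first member, from 114480801 to 114480900 within Hrh1, had 110 wildtype and 157 knockout counts (log2 0.35, -0.016 to 0.71). It and its 3 neighbours in Hrh1 had 94 to 110 wildtype counts, more than any window of the array. The nearest listed window outside the left edge, from 114477301, had 31 wildtype and 15 knockout counts (log2 -1.22). At the other side, the last member, from 114644901 within Atg7, had 7 and 23 counts (log2 1.55, 0.28 to 3.01). The next listed window, from 114645101, had 29 and 52 (log2 0.67, -0.0079 to 1.38). Inside the array, the first window had 20 and 53 counts and the last 9 and 25, with log2 ratios of 1.24 and 1.31.

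Summed over their listed windows, genes beside the array did not share its ratio. Hrh1, whose end lies 6.40 kb from the array, had 6125 wildtype and 6607 knockout counts over 122 listed windows, a log2 ratio of -0.059 (-0.16 to 0.043). Atg7, 5.53 kb away on the other side, had 12542 and 13919 counts over 271 windows, a ratio of -0.018 (-0.088 to 0.052). Such a sum can hide single stretches. Within Atg7, the 1 kb from 114738001 had 4 wildtype and 147 knockout counts in 6 listed windows (log2 5.03, 2.47 to 10.38). Farther left, the GABA transporter gene Slc6a11 had -0.25. Atp2b2, a calcium pump gene, had 0.081, and Sec13, a gene of vesicle coats and the nuclear pore, had 0.18. To the right, Vgll4, a cofactor gene of TEAD factors, had -0.12, and Tamm41, which acts in mitochondrial cardiolipin synthesis, had 0.45. The synapsin gene Syn2 had -0.50, and Timp4, a metalloproteinase inhibitor gene inside the span of Syn2, had 0.36 on 5 windows. The sums of the genes named here therefore lay between -0.50 and 0.45, all under 2-fold.

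In bins of 1 kb, a bin was called with at least 20 fragments, a ratio of at least 2 and an interval that excludes equality. Of 151 bins of the block with the minimum, 143 were called higher and 0 lower, against 11.2% higher and 25.2% lower over 595994 bins of the genome. The rule used these runs too, and nothing is read from the difference. With autosomal counts as the scale, 140 bins were called (8.73% of the genome's), with the authors' scaling 146 (13.6%) and within CpG classes 141 (20%). Setting windows of 5 or more CpGs to 0 left 123 (6.64%), and a fold of 4 left 103 (5.79%). Called bins formed 7 runs, a number that depends on the bins. With 2 kb bins there was 1 run of 150 kb, with 500 bp bins there were 44, and 22 when the scale came from windows holding 5 or more CpGs. With the authors' scaling there were 4, and bridging 1 uncalled bin left 1. From left to right they covered 19 kb from 114489001 (log2 2.34), 11 kb from 114509001 (2.65), 4 kb from 114521001 (2.28), 28 kb from 114526001 (1.99), 9 kb from 114555001 (2.01), 33 kb from 114565001 (2.68) and 39 kb from 114599001 (2.44). Only 6 bins separated them, and each of the 6 held the centre of a gap between units, as did 60 of the 149 bins in this stretch. These bins had 2 or 4 listed windows each. Of the 6, 3 lay under 2-fold, with log2 ratios of 0.68, 0.69 and 0.99, and the other 3 were at least 2-fold higher, at 1.14, 1.15 and 1.52, without passing the call. The bins from 114525001, 114554001, 114564001 and 114598001 hold the starts of units 15, 27, 31 and 45, which were among the units with the lowest ratios described below. The bins from 114508001 and 114520001 hold the starts of units 8 and 13, with log2 ratios of 2.64 and 2.53, above the median of all units.

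Counts differed less between CpG classes inside the block than over the table. Windows of the block with 1 CpG had medians of 6 wildtype and 38 knockout counts, and those with 5 or more CpGs had 9 and 60. Over all listed windows the medians went from 29 and 17 at 1 CpG to 70 and 120 at 5 or more. The log2 ratio of summed counts in the block was 2.00 (1.81 to 2.19) at 1 CpG, 2.11 at 2, 2.19 at 3, 2.35 at 4 and 2.44 (2.33 to 2.55) at 5 or more. Over the table it went from -0.099 at 1 CpG to 0.71 at 5 or more. The 123 windows of the block with 1 CpG were all higher in the knockout library, in a class where 37.8% of listed windows were. As the rule used this contrast, nothing is read from that share.

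**Figure D3:**
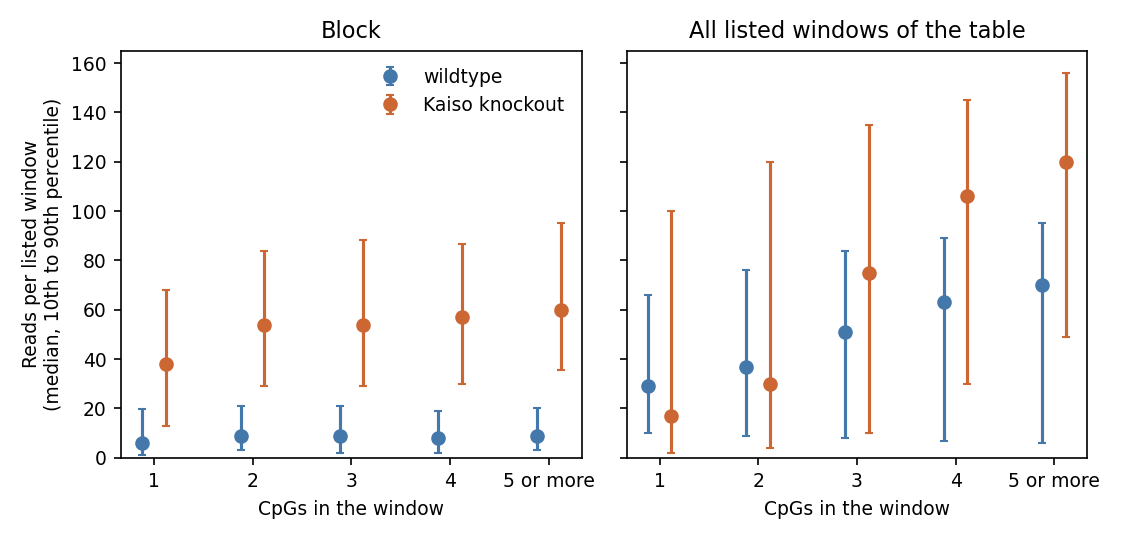
Reads per listed window (vertical axis; point, median; bar, 10th to 90th percentile of windows) by number of CpGs (horizontal axis), in the block and over the table. In the block the wildtype medians stay between 6 and 9 and the knockout medians between 38 and 60, while over the table both rise with CpG number.

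Against windows of equal CpG number, each library took a different place. At 1 CpG, 6.88% of all listed windows had a wildtype count at or below the block's median of 6, and 68.7% had a knockout count at or below its median of 38. With 3 CpGs the shares were 11.6% in wildtype and 41.7% in the knockout library. At 5 or more CpGs they were 13.5% and 13.7%. The wildtype library was thus low in each class. The knockout library was above the class median among windows with 1 or 2 CpGs and under it among those with 3 or more. With few wildtype counts, windows with similarly few knockout counts do not pass the p, so the listing affects these places and they were not tested.

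Over the 1123 windows of the array, knockout counts had a Pearson r of 0.27 with CpG number and of 0.49 with the CpGs of the 5 adjacent window positions. For wildtype counts the same values were 0.034 and 0.011. Windows share fragments and units, so these are descriptions. Counts of both libraries had an r of 0.51 with each other.

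A mean unit was made by lining up the 59 whole units at their gap centres, positions counted towards higher coordinates, since the strand of the unit is not known. At 100 and 200 bp from the centre the window was listed in 6 and 3 units, with a median of 1 CpG. From 600 to 1900 bp it was listed in 93.2% to 100% of units. CpGs had 2 maxima, a mean of 5.04 per listed window at 900 bp and of 4.95 at 1700 bp. Knockout counts also had 2 maxima, a median of 63 at 700 bp and of 77 at 1700 bp, with 38 at 1100 bp between them. Wildtype counts had medians of 12 at 500 and 600 bp, of 3 at 1200 bp and of 12 at 1700 bp. The first knockout maximum thus lay 200 bp before the first CpG maximum, and the second on it.

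**Figure D4:**
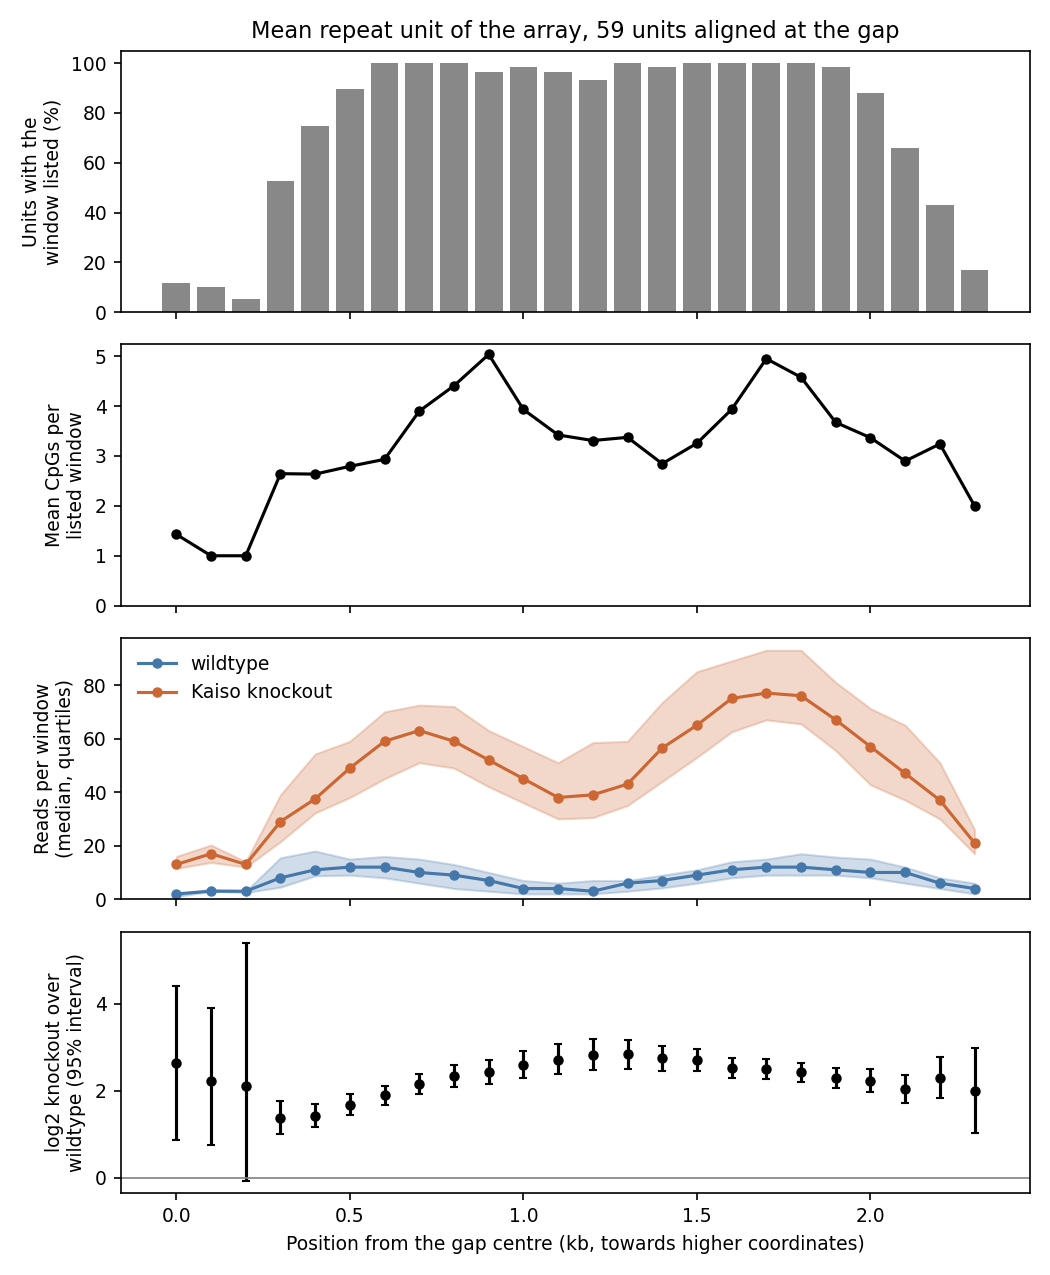
Share of units with the window listed, mean CpGs, reads (median and quartiles over units) and log2 ratio with its 95% interval (vertical axes) by position from the gap centre in kb (horizontal axis), over 59 units. Knockout reads peak at 0.7 and 1.7 kb, wildtype reads stay at or under a median of 12, and the ratio is lowest near 0.3 to 0.4 kb.

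The ratio changed along the unit. Just after the gap, at 300 and 400 bp, the log2 ratios over all units were 1.37 (1.00 to 1.76) and 1.42 (1.16 to 1.70). In the middle, at 1200 and 1300 bp, they were 2.83 (2.47 to 3.19) and 2.83 (2.50 to 3.17). At 1700 bp, where the knockout library had most reads, the ratio was 2.50 (2.28 to 2.73). Between the CpG maxima both libraries had a dip, while the lowest knockout medians of the unit, 13 to 17, were those of the few windows listed within 200 bp of the gap centre, where wildtype had 2 to 3. Windows are listed only where they passed the p, which takes low ratios out where counts are few.

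No window of the block was without knockout counts, and 19 had 0 wildtype counts (1.68%, against 1.24% of all listed windows). These 19 had 11 to 60 knockout counts, with a median of 33, and 10 of them lay 800 to 1300 bp from a gap centre. The one with the most, from 114597201 to 114597300 in unit 44, had 60 knockout counts. It was 17.8-fold higher with the wildtype count set to a floor of 3, and its interval began at log2 3.81. Another in unit 33, from 114569901, had 56 and was 16.6-fold higher by the same floor, with an interval from log2 3.71. With few wildtype counts, the window from 114597301 had 1 and 81 (log2 6.17, 3.65 to 11.49) and that from 114577301 had 1 and 74 (6.04, 3.52 to 11.36). A window from 114575801 in unit 35 had 3 and 113 (5.07, 3.48 to 7.37). The largest knockout RPKM of the array, 14.8, was that of the window from 114551101 in unit 25, with 6 CpGs, 30 wildtype and 146 knockout counts (log2 2.11, 1.54 to 2.73). It lay 1700 bp from its gap centre, at the second maximum.

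Units differed from each other more in wildtype than in the knockout library. Wildtype means per listed window ran from 3.67 to 31.7 over the 59 units, with a median of 8.45, and knockout means from 29.95 to 86.6, with a median of 56.65. The summed counts of a unit had a coefficient of variation of 50.8% in wildtype and 21.4% in the knockout library. Counting error alone, on fragments taken as counts divided by 4, would give 14.7% and 6.20%. Both spreads were therefore larger than counting error. Units with more wildtype reads tended to have more knockout reads, with a Pearson r of 0.73 over 59 units that may share reads.

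**Figure D5:**
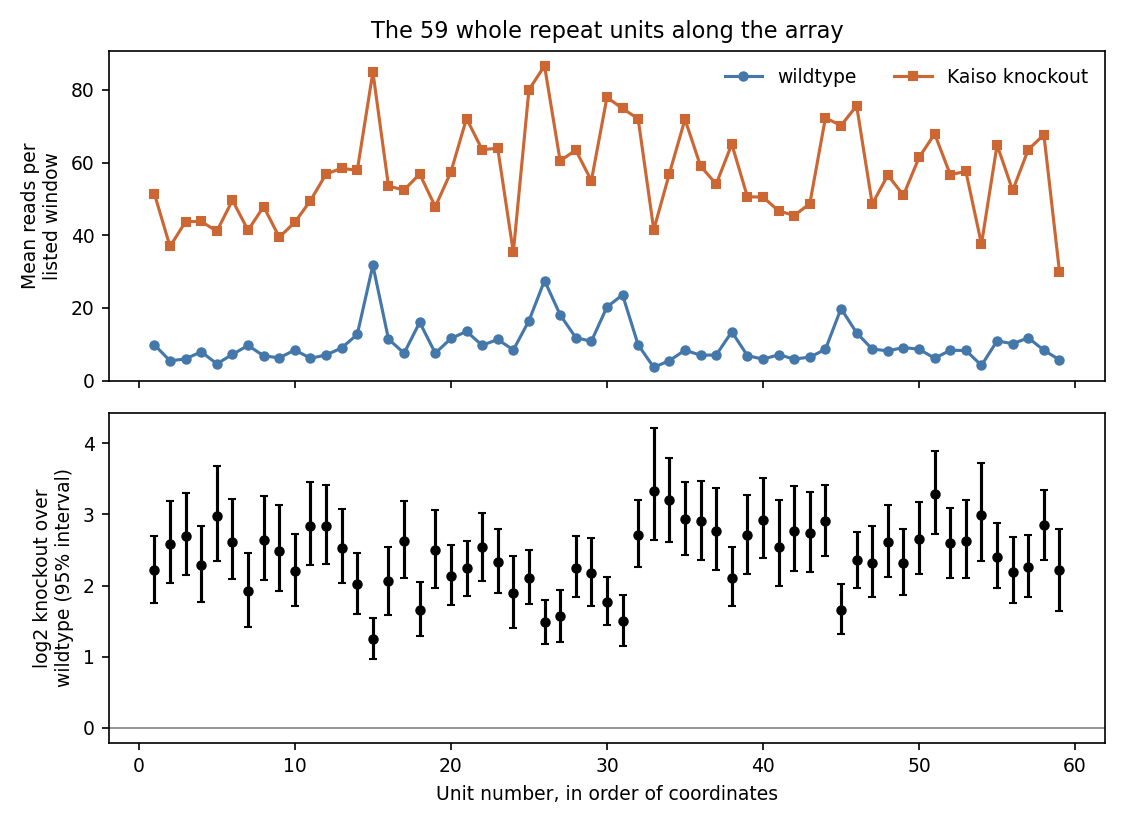
Mean reads per listed window in each library and log2 ratio with its 95% interval (vertical axes) for the 59 whole units in order of coordinates (horizontal axis). Every unit lies above 0, from 1.25 in unit 15 to 3.33 in unit 33.

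The array was chosen and bounded by this ratio, its units may share reads, and no genome share for stretches of this length is given. Nothing is therefore read from the counts of units that follow. Each of the 59 units had a ratio of 2-fold or more towards the knockout library, 50 of 4-fold or more and 3 of 8-fold or more. In 58 the interval lay above 2-fold. The exception, unit 15 from 114525201 to 114527600, had 571 wildtype and 1528 knockout counts (log2 1.25, 0.97 to 1.54). This unit had the most wildtype reads and also the most knockout reads in sum. Units 26 (2.80-fold, log2 interval 1.18 to 1.80) and 31 (2.82-fold, log2 interval 1.16 to 1.87) followed, with 27.5 and 23.6 wildtype reads per listed window. At the other end, unit 33 from 114569101 to 114571400 had 66 wildtype and 747 knockout counts (3.33, 2.64 to 4.22). Unit 51 from 114613201 had 111 and 1222 (3.29, 2.72 to 3.90), and unit 34, next to unit 33, had 110 and 1139 (3.20, 2.62 to 3.79).

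Over units the log2 ratio had a Pearson r of -0.84 with the wildtype mean, which is also its denominator, of -0.34 with the knockout mean and of 0.11 with mean CpG number, which varied little between units. Of the 7 units with the lowest ratios, units 15, 18, 26, 27, 30, 31 and 45, each had more than 16 wildtype reads per listed window. The next lowest, units 24 and 7 (log2 1.89 and 1.93), had 8.45 and 9.69, while unit 25 had 16.5 and a log2 ratio of 2.11. What else sets these units apart in sequence was not analysed here.

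Stretches of chromosome 6 from 47650001 and 47740001 had log2 ratios nearer to that of the block and are described at the end. Of the stretches chosen for comparison here, the 45 kb run over the 5S ribosomal RNA genes on chromosome 8 was repeated as well. In it 395 windows were listed, with 5.71 CpGs on average against 3.54 in the block. Its CpG counts had an r of 0.94 at a spacing of 1.7 kb over 353 pairs, compared with the 0.38 at 2.4 kb over the longer chromosome 6 block. Left of that block's midpoint r was 0.53 at 2.4 kb, and right of it 0.50 at 2.5 kb. Medians in the chromosome 8 run were 14 wildtype and 58 knockout counts, close to the 9 and 55 of the block. The log2 ratio of the run was 1.53 (1.46 to 1.60). Of its windows 31.9% were at least 4-fold higher, compared with 70.5% in the block. A block of chromosome 13, whose first listed window starts at 65901101, went the other way. Its 509 listed windows had a median of 63 counts in wildtype and 13 in the knockout library, and their log2 ratio was -1.78 (-1.84 to -1.72). The highest r of its CpG counts was 0.51 at 16.1 kb on 80 pairs, and 17.0% of its positions were listed, against 68.5% in the chromosome 6 block. Reads may be shared among copies in all of these.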

How the data were processed

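Methylated testis DNA was measured in 1 wildtype and 1 Kaiso knockout library, grouped by the genotype label. Bowtie2 2.2.6, edgeR and mm10 are named in the submitters' processing notes; read extension, duplicates and multiple alignments are not given in the sources used here. The deposited counts are whole reads per 100 bp window, per the file headers, and the authors' RPKM is that count scaled to window and library, from which the library reads were derived. The authors' relative methylation score is a signal of unstated scale. All 2537435 windows have a deposited p-value under 0.05, with an adjusted p-value equal to it. The authors' log2 fold change was used only for an alternative scaling, and the CpG count per window is deposited too. Another 10 columns were not used here.

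Sums over windows were divided by 4 and rounded to whole fragments for intervals and minimums. Regions without a whole fragment were set to 3 fragments and windows at 0 to 3 counts. Bins of 1 kb needed 20 fragments, a ratio from 2 up or from 0.5 down, and an interval clear of 1. Autocorrelation used listed windows up to 20 kb apart. The period is the strongest Fourier period of the listing in steps of 0.01 kb, and unit gaps were followed from it; the listing, gaps and units were chosen after seeing the data. Calls, periods and gaps were tested on simulated data, with counting error only for the calls and gaps spaced within the range of the search. These simulations check the code and not how the methods behave on real reads. Gene spans came from the GRCm38.p6 annotation, and no sequence of the array was used here. Windows and genes were named by a rule: extremes of ratio and knockout RPKM, edges, windows without wildtype counts and the 5 nearest protein-coding genes on each side, of which 1 is not reported here; units were named by their ratios after these were seen. The block, comparisons and alternatives were chosen with earlier results of these data known. Python 3.11.15, pandas 2.3.3 and scipy 1.17.1 were used.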

Additional observations from a re-analysis of the deposited data

How the results depend on the processing

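The block's log2 ratio of 2.26 stayed above 1 under each alternative tried. It was 1.99 with autosomal counts, 2.39 with the authors' scaling, 1.60 with CpG-rich windows (5 or more CpGs) set to 0 and 1.96 within CpG classes. It was 2.00 in windows with 1 CpG, 2.33 with 3 or more, 2.45 with an authors' p under 0.001 and 2.49 as the median of windows. Of the windows, 98.6% were higher with CpG-rich windows set to 0 and 99.4% within CpG classes. The 143 called bins were 103 with a fold of 4, 123 with CpG-rich windows set to 0, and 134 to 146 otherwise. The share of the genome's bins moved as well. A fold of 1.5 called 145 in the block and 25.1% of the genome's, and a minimum of 50 fragments called 134 and 12.2%. With a divisor of 3, a divisor of 6 or fragments not rounded, 11.2%, 11.1% and 11.2% of the genome's were called. Run lengths depend on how bins are cut. The longest run and the number of runs were 73 kb and 4 with the authors' scaling, 23 kb and 22 with CpG-rich windows set to 0, 9 kb and 44 with 500 bp bins, 150 kb and 1 with 2 kb bins, and 149 kb and 1 when 1 uncalled bin was bridged. Without rounding the fragments the longest run was 73 kb. The chromosome 8 run had 1.26, 1.66, 0.87 and 1.10 under the scalings in the order above, and the chromosome 13 block -2.05, -1.65, -2.44 and -1.67. The wildtype peak at 1.2 kb moved to 2.5 kb on a log2 scale and 2.4 kb left of the midpoint. The strongest Fourier period of the CpG count was 0.82 kb, not 2.44 kb, although its autocorrelation peaked at 2.4 kb. For reads it was 1.23 kb in knockout and 1.22 kb in wildtype RPKM. Maxima within a unit can give such shorter periods, but the cause was not tested. No paired analysis was possible because each group has 1 library. Depth limits single windows most, since the wildtype median in the block is 9 counts.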

Other observations

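Tiles of 10 kb with 60 or more listed windows were rare, 147 of 220459, and 15 of them lay in the chromosome 6 block. This minimum was chosen after seeing the data. Of the 132 elsewhere, 104 were higher in the knockout library in over 95% of their windows. Windows with several CpGs were mostly higher anywhere. Among all listed windows the share was 71.0% at 3 CpGs, 91.7% at 4 and 98.9% at 5 or more. The median log2 ratio of the 132 tiles was 0.65, against 2.38 in the block's tiles. The count of 104 therefore does not show that these tiles resemble the block. Only 8 of the 132 had a log2 ratio at or above 2.38. On chromosome 6, a stretch of 40 kb from 47650001 to 47690000 held Rn4.5s, a gene of the small noncoding 4.5S RNA of rodents. Its 298 listed windows had a median of 24 counts in wildtype and 172 in the knockout library, and their log2 ratio was 2.13 (2.08 to 2.19). CpG counts there had a Pearson r of 0.88 at a spacing of 4.3 kb over 242 pairs. A stretch of 30 kb from 47740001 to 47770000 had a ratio of 2.11 (2.05 to 2.17), and its CpG counts had an r of 0.56 at the same 4.3 kb.

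Around Flg, the filaggrin gene of the skin barrier, a tile of chromosome 3 from 93280001 to 93290000 had 99 listed windows, all higher in the knockout library (log2 2.32, 2.17 to 2.47), and CpG counts with an r of 0.81 at 1.5 kb over 84 pairs. Dense tiles without such a peak were found as well. The tile of chromosome 6 from 52200001 to 52210000, over Hoxa3, Hoxa5 and Hoxa6, had a log2 ratio of 3.28 (2.98 to 3.59), and the highest r of its CpG counts was 0.23.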
